A study of Mus musculus with 15 samples.

Results

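The enzymes that build the O-linked sugar chains of mucins were followed in whole mouse lung, as 10 genes chosen by symbol (Galnt1, Galnt3, Galnt6, Galnt7, Galnt12, C1galt1, Gcnt1, Gcnt3, B3gnt3 and Fut2) out of the 24054 genes of the count table. All 10 were found, and all 10 passed the filter on low counts that left 15905 genes for testing. The 15 lungs came from female wild type Balb mice in 3 groups of 5. Saline mice, the controls, had a sham sensitisation and an isotype antibody of no stated specificity. Mice of the OVA group were sensitised by intraperitoneal injection of ovalbumin, an egg white protein used as an allergen, then challenged with nebulised ovalbumin, and likewise received the isotype. The anti-IL-4Ra group had the same ovalbumin treatment with an anti-mouse-IL-4Ra antibody at 30 mg/kg in place of the isotype control. IL-4Ra is the receptor chain through which both interleukin 4 and interleukin 13 act. The labels do not say whether saline mice were challenged, or when antibody was injected and lungs were taken.

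Mucins such as Muc5ac and Muc5b are secreted by airway goblet cells and carry dense O-linked glycans. Chains start when a polypeptide GalNAc transferase (the Galnt family) adds GalNAc to serine or threonine, C1galt1 then adds galactose to make core 1, and Gcnt1 or Gcnt3 adds a GlcNAc branch to make core 2. B3gnt3 extends core 1 with GlcNAc, and Fut2 caps galactose ends with fucose to make the H antigen.

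Library totals were 16774285 to 27570666 expected counts in the saline group, 10042825 to 14706131 in the OVA group and 12317805 to 16914475 in the anti-IL-4Ra group, so that 3 counts were worth 0.113 to 0.308 CPM across the libraries, where CPM is a count scaled to the library's total. Markers of alveolar type 2 cells summed to at least 4132.5 CPM in every library. Rn45s, the ribosomal RNA precursor, took up 1.19 to 2.88% of counts in saline lungs, 4.31 to 12.4% in OVA lungs and 1.65 to 12.4% in anti-IL-4Ra lungs. The saline and OVA ranges did not overlap. Per the labels, rRNA was depleted and poly-A RNA was also selected, and what sets the Rn45s share was not tested. The summed level of 8 goblet cell markers (Clca3, Muc5ac, Spdef, Foxa3, Agr2, Fcgbp, Itln1 and Slc26a4) was 8.88 to 32.6 CPM in saline, 2540.3 to 18012.4 CPM in OVA and 833.6 to 10669.6 CPM in anti-IL-4Ra lungs, and 8 of 8 were called higher in both ovalbumin groups against saline. That of 8 general epithelial markers was 681.9 to 1239 CPM, 454.6 to 1004.7 CPM and 539 to 940.7 CPM in the same order, with 0 of 8 called in any of the 3 comparisons (edgeR). At an unadjusted p under 0.05 there were 2 of the 8 in OVA against saline and 0 in each of the other two comparisons. Other cell types moved as well in OVA against saline (edgeR). Markers of club cells, the secretory cells of the airway, were lower in 6 of 6, and those of alveolar type 2 cells, alveolar type 1 cells and endothelium in 5 of 6 each. Markers of B cells were higher in 6 of 6, of T cells in 6 of 7 and of macrophages in 4 of 6. Summed club cell markers were 11799.7 to 28104 CPM in saline, 3500.4 to 10066.5 CPM in OVA and 5169.7 to 15219.2 CPM in anti-IL-4Ra lungs. The part of any of these shifts in the results below was not tested. In whole lung, more cells of a type and more RNA per cell cannot be told apart.

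The first question was whether the enzymes differ between OVA-challenged and saline lungs. In OVA lungs 7 of the 10 enzymes were higher and none was lower at an adjusted p under 0.05 (edgeR's quasi-likelihood test, Benjamini-Hochberg adjustment over all 15905 genes). Of all genes tested, 37.1% were called in the same comparison and 19.3% were called higher. For 6 of the 10 every OVA lung lay above every saline lung, where 26.6% of all genes had groups that did not overlap in either direction. The median log2 change over the 10 was 0.99, beside 0.02 over all genes tested. Changes ran from 0.11 for C1galt1 to 6.02 for Gcnt3. The 10 were chosen with earlier results of these data known. Their counts and median beside those of all genes therefore test no excess, here or in the later comparisons.

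**Figure D1:**
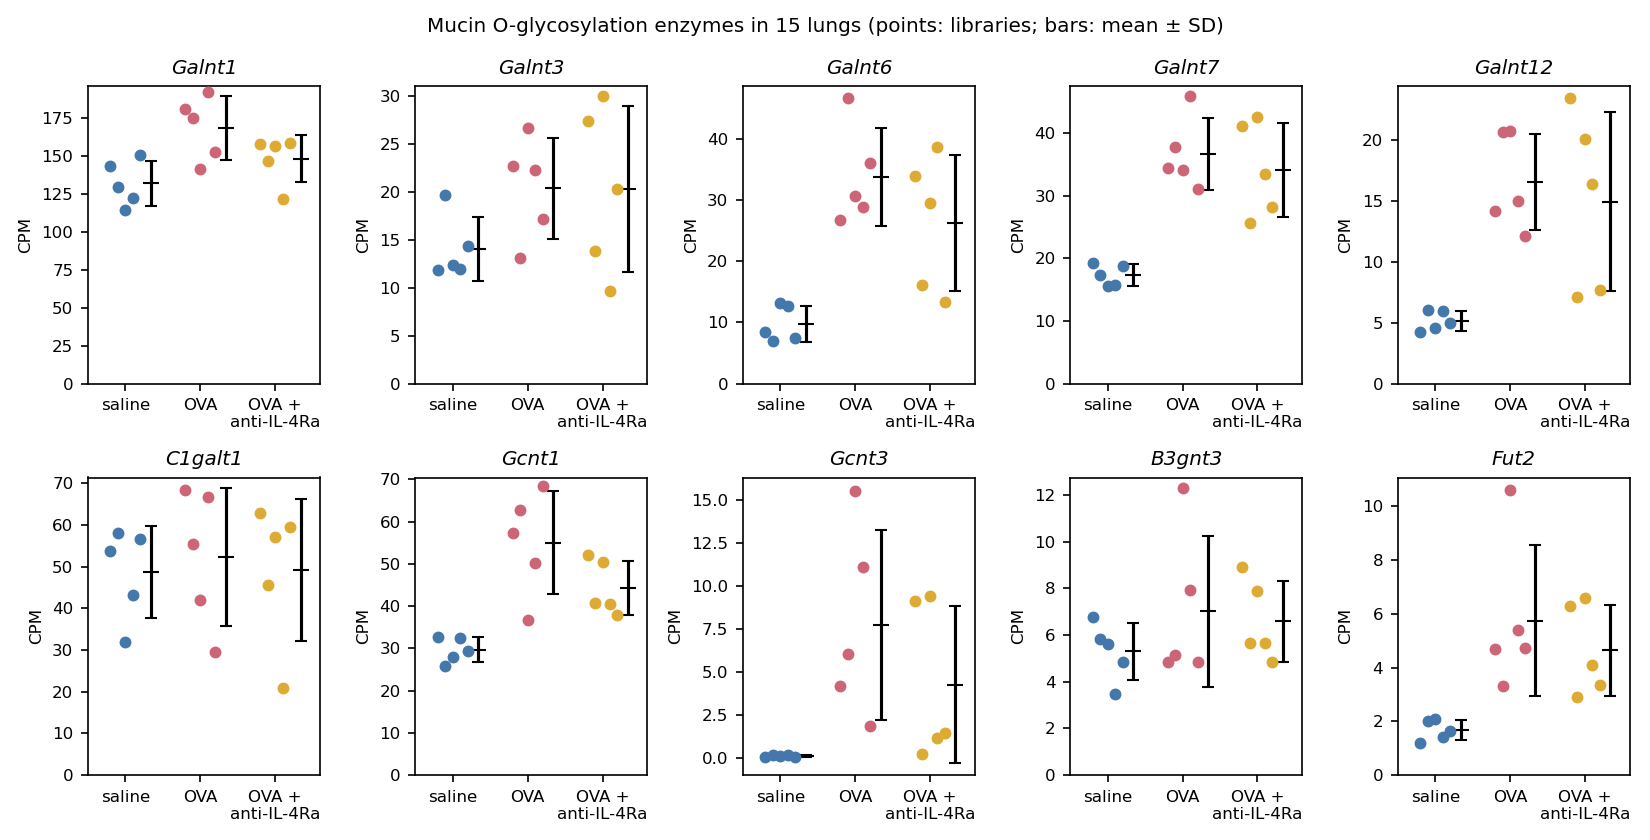
CPM (y axis, linear, a separate scale for each gene) of the 10 enzymes in each of the 15 lungs, by group (x axis); points are libraries in the order of their replicate numbers and black bars the mean ± SD of 5 (for Gcnt3 with the antibody the SD exceeds the mean, so its bar crosses 0). Gcnt3 was at or below 0.163 CPM in the 5 saline lungs, and the groups overlap for Galnt1, Galnt3, C1galt1 and B3gnt3.

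Gcnt3, the mucin-type enzyme that makes core 2 and also core 4 branches, showed the widest change. Its level in the 5 saline lungs was 0.0753, 0.155, 0.101, 0.163 and 0.0611 CPM, which rested on 2, 4, 2, 3 and 1 counts. In OVA lungs it was 4.17, 6.04, 15.5, 11.1 and 1.85 CPM. Even the lowest OVA lung stood far above the saline lungs, while the OVA lungs spread widely among themselves, with replicate 3 highest and replicate 5 lowest. The log2 change was 6.02 ± 0.99 (SE, 95% interval 3.93 to 8.12, edgeR adjusted p = 0.0004), a 65.1-fold difference whose size depends on the 1 to 4 counts per saline library.

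Gcnt1, the widely expressed core 2 branching enzyme, was at 32.7, 25.9, 28, 32.5 and 29.3 CPM in saline lungs and at 57.2, 62.8, 36.7, 50.1 and 68.3 CPM in OVA lungs. The groups did not overlap, and OVA replicate 3, the lung with the most Gcnt3, had the least Gcnt1 of its group. Gcnt1 was higher by 0.89 ± 0.15 on the log2 scale (edgeR adjusted p = 0.00052).

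Promoters were searched because interleukin 4 and interleukin 13 act through STAT6, whose known sites are palindromes of the form TTCNNNNGAA. The RefSeq promoter table (GRCm38.p6) holds 9 windows for 6 of the 10 enzymes. Its first 250 bases before each start were searched for TTCNNNGAA and TTCNNNNGAA, which read the same on both strands. Gcnt3, Galnt12, Fut2 and Galnt1 are not among the 6. Windows of Gcnt1 starts at chr19:17339506-17339755 and chr19:17372845-17373094 held no match. Of the 9 windows 1 held a match, that of a Gcnt1 start on the minus strand at chr19:17356668-17356917. It is shown for this reason, with the matches in capitals.

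Gcnt1 promoter: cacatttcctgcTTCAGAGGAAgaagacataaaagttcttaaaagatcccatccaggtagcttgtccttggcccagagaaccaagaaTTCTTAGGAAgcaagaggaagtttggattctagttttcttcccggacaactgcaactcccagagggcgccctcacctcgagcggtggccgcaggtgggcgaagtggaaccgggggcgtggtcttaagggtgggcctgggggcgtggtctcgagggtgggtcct

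Both matches have the spacer of 4 bases. The first begins 238 bases and the second 163 bases before the start. Across 32851 windows of the same length, 7.02% held TTCNNNGAA, 5.85% TTCNNNNGAA, 12.4% either and 0.965% at least 2 matches. The 1 of 9 enzyme windows with a match is near the 12.4% of all windows. A match describes letters in a window, and the counts do not tell which Gcnt1 start was used.

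The balance between both branching enzymes was read from counts of the same library. Gcnt3 made up 0.23, 0.595, 0.359, 0.5 and 0.208% of the summed Gcnt1 and Gcnt3 counts in saline lungs. It made up 6.79, 8.77, 29.7, 18.1 and 2.63% in OVA lungs and 14.9, 0.506, 15.7, 2.75 and 3.61% in anti-IL-4Ra lungs. The share was thus below 1% in all 5 saline lungs and in 1 anti-IL-4Ra lung, and reached its highest value in OVA replicate 3, with an exact 95% binomial interval of 26.5 to 33.1% that covers counting error only. Mean shares were 0.378 ± 0.168% (SD, n = 5) in saline, 13.2 ± 10.8% in OVA and 7.49 ± 7.21% in anti-IL-4Ra lungs. The difference between OVA and saline lungs had an exact two-sided permutation p of 0.00794, the smallest that 252 assignments can give, and an adjusted p of 0.0238 over the 3 comparisons. Without any 1 of the saline lungs the adjusted exact permutation p was 0.0714. It stayed under 0.05 without any 1 of the OVA lungs, which leaves as many assignments. Counts of different genes depend on transcript length as well as abundance, so the share describes shifts and not molar amounts.

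Among the 5 enzymes of the Galnt family 3 were higher with no overlap between the groups. Galnt6 was at 8.43, 7.01, 13.2, 12.7 and 7.45 CPM in saline lungs and at 26.7, 46.7, 30.7, 28.9 and 36.1 CPM in OVA lungs, the highest in replicate 2. Its log2 change was 1.79 ± 0.29 (edgeR adjusted p = 0.00037). Galnt12, another peptide GalNAc transferase, was at 4.22, 6.01, 4.59, 5.93 and 5.01 CPM in saline and at 14.2, 20.7, 20.8, 15 and 12.1 CPM in OVA lungs. The lowest OVA lung was well above the highest saline lung, and the change was 1.69 ± 0.30 (edgeR adjusted p = 0.00071). Galnt7, which prefers peptides that already carry GalNAc, was the most even of these 3 within groups. It was at 19.3, 17.4, 15.6, 15.7 and 18.7 CPM in saline and at 34.5, 37.8, 34.1, 46.0 and 31.1 CPM in OVA lungs, a change of 1.08 ± 0.15 (edgeR adjusted p = 0.00013). In the GENCODE M21 annotation, exons of Galnt6 overlap Galnt6os and those of Galnt7 overlap AW046200 on the opposite strand. The libraries were strand-specific per the labels, but whether counting used the strand is not stated. Expected counts of Galnt6 and Galnt7 lay at a distance of 0 from the nearest whole number in every library. They show no read divided between these genes and their partners. Whether whole reads of a partner were counted for Galnt6 or Galnt7, or the reverse, was not tested.

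Fut2 was at 1.2, 2.02, 2.07, 1.42 and 1.65 CPM in saline lungs and at 4.70, 3.31, 10.6, 5.4 and 4.72 CPM in OVA lungs. All OVA lungs lay above all saline lungs, and replicate 3 stood apart from the other four. The log2 change was 1.78 ± 0.32 (edgeR adjusted p = 0.00079). Expected counts of Fut2 differed from the nearest whole number by over 0.005 in 14 of 15 libraries, which shows reads shared with another gene. The largest distance, 0.48 of a count, does not bound how many reads were shared, which was not measured.

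Galnt1, a broadly expressed transferase, was at 143.3, 129.6, 114.5, 122.5 and 150.8 CPM in saline and at 181.2, 175.1, 141.4, 192.3 and 152.8 CPM in OVA lungs. These groups overlapped, and the change was 0.35 ± 0.11 (edgeR adjusted p = 0.025). The Galnt1 call was lost when any of 8 libraries was left out, namely saline replicates 2, 3 and 4, OVA replicates 1, 2 and 4 and anti-IL-4Ra replicates 1 and 2, with changes of 0.26 to 0.34 and adjusted p-values of 0.051 to 0.1.

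The remaining enzymes did not pass the test. Galnt3, a transferase known for glycosylating Fgf23, was at 11.8, 19.7, 12.4, 11.9 and 14.3 CPM in saline and at 22.7, 13.1, 26.6, 22.3 and 17.1 CPM in OVA lungs (log2 change 0.54 ± 0.28, edgeR adjusted p = 0.14). B3gnt3 was at 6.78, 5.81, 5.6, 3.48 and 4.82 CPM in saline and at 4.85, 5.13, 12.3, 7.93 and 4.82 CPM in OVA lungs (0.40 ± 0.28, adjusted p = 0.26, and 0.05 without OVA replicate 3). C1galt1 was at 53.8, 58.1, 32.0, 43.3 and 56.6 CPM in saline and at 68.3, 55.4, 41.9, 66.8 and 29.6 CPM in OVA lungs (0.11 ± 0.28, adjusted p = 0.79). The groups overlapped for all 3, and the 95% interval for C1galt1, from -0.48 to 0.69, leaves room for a change in either direction.

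**Figure D2:**
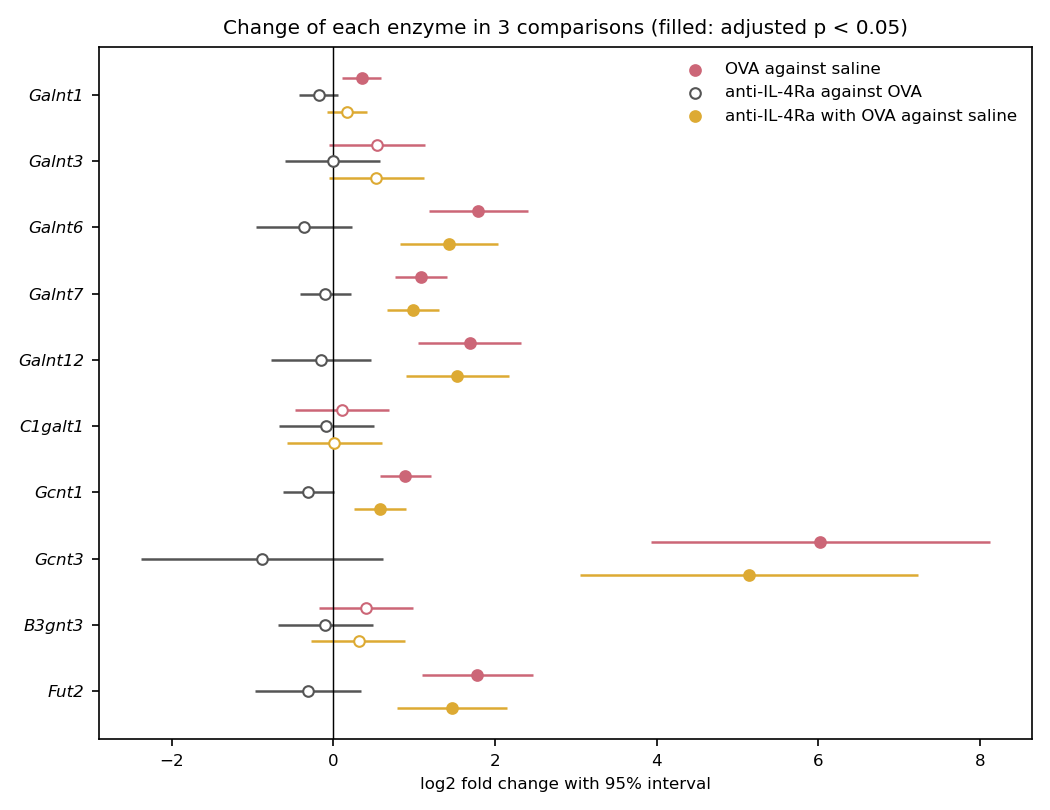
log2 fold change (x axis) with its 95% interval for each enzyme (y axis) in the 3 comparisons, filled where the edgeR adjusted p was under 0.05. Red and yellow points, both against saline, lie right of 0 for all 10 genes, and the grey points of anti-IL-4Ra against OVA are all open.

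With the Rn45s share as a covariate, 2 of the 10 stayed called, Galnt7 at 0.87 (edgeR adjusted p = 0.027) and Gcnt3 at 5.22 (adjusted p = 0.029), while all 10 changes stayed positive and 7 of 10 had an unadjusted p under 0.05. The other 5 calls were lost at changes of 0.83 for Galnt6 (adjusted p = 0.078), 0.53 for Gcnt1 (0.098), 0.99 for Galnt12 (0.12), 1.63 for Fut2 (0.057) and 0.45 for Galnt1 (0.11). Since the share did not overlap between saline and OVA lungs, it and the treatment cannot be fully told apart in this fit. With libraries scaled to the summed epithelial markers, which moves the median of all genes to 0.50, 8 of the 10 were called, Galnt3 being the added one (0.99, adjusted p = 0.0077).

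The antibody was compared with the isotype control among OVA lungs. None of the 10 enzymes was called (edgeR), none had an unadjusted p under 0.05, and 0.302% of all genes were called. DESeq2 and limma voom also called none of the 10, with 1 at an unadjusted p under 0.05 in each. All 10 changes were below 0, with a median of -0.17 beside 0 over all genes, and in none did the groups separate, as they did for 1.17% of all genes. This comparison and the previous one share the OVA lungs, so a low or high OVA library enters both. In the same comparison 8 of 8 goblet cell markers were below 0 (median -0.63, none called, 1 at an unadjusted p under 0.05) and 6 of 6 club cell markers above 0 (median 0.88, none called, 4 at an unadjusted p under 0.05). Their part in the enzyme values was not tested.

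Gcnt3 had the widest range under the antibody as a ratio of the highest to the lowest lung, at 9.09, 0.207, 9.39, 1.14 and 1.42 CPM, or 110, 3, 141, 17 and 25 counts. Replicates 1 and 3 lay within the OVA range, and replicates 2, 4 and 5 lay below its lowest lung. The log2 change against OVA was -0.88 ± 0.71 (95% interval -2.38 to 0.61, edgeR adjusted p = 1), an interval that holds both a small rise and a large fall. The difference in the Gcnt3 share, -5.71 percentage points, had an exact two-sided permutation p of 0.381. It was -1.59 points without OVA replicate 3 and -8.36 points without OVA replicate 5, the extremes over all libraries left out in turn.

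Gcnt1 came nearest to a change, at 52.0, 40.6, 50.5, 40.4 and 37.9 CPM with the antibody. All 5 values lay above the saline lungs, and inside the OVA range. The log2 change was -0.31 ± 0.15 (95% interval -0.63 to 0.01, unadjusted p = 0.054, edgeR adjusted p = 0.90).

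Galnt6 was at 33.9, 16.1, 29.6, 38.7 and 13.3 CPM with the antibody and Galnt12 at 23.5, 7.09, 20.1, 16.4 and 7.73 CPM. Fut2 was at 6.28, 2.89, 6.59, 4.10 and 3.35 CPM. In all 3 genes replicates 2 and 5 were the lowest lungs of the group. The changes against OVA were -0.36 ± 0.28 for Galnt6, -0.15 for Galnt12 and -0.32 ± 0.31 for Fut2, none called. Galnt7 was at 41.1, 25.7, 42.5, 33.4 and 28.2 CPM (-0.10), again lowest in replicates 2 and 5.

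Galnt1 was at 158.0, 146.6, 156.4, 122.0 and 158.4 CPM with the antibody (-0.18 ± 0.11). Galnt3 was at 27.4, 13.8, 30.0, 9.69 and 20.3 CPM (-0.01), C1galt1 at 62.9, 45.7, 57.1, 20.8 and 59.4 CPM (-0.09) and B3gnt3 at 8.92, 5.65, 7.86, 5.65 and 4.83 CPM (-0.10). Replicate 4 was the lowest lung for Galnt1, Galnt3 and C1galt1, whereas Galnt6, Galnt7, Galnt12 and Fut2 were lowest in replicates 2 and 5. Without OVA replicate 3 the signs of B3gnt3 (0.23) and Fut2 (0.05) turned in this comparison, still uncalled.

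Antibody-treated OVA lungs were then set against saline lungs, which both ovalbumin comparisons share. Of the 10 enzymes, 6 were called higher (13.9% of all genes were) and the same 6 had no overlap with saline (19.8% of all genes in either direction). For Gcnt3 this gap is at the floor. Anti-IL-4Ra replicate 2 was at 0.207 CPM from 3 counts, beside 0.163 CPM from 3 counts in saline replicate 4. The Gcnt3 share of that antibody lung, 0.506%, lay inside the saline range of 0.208 to 0.595%. Their log2 changes were 5.14 ± 0.99 for Gcnt3 (edgeR adjusted p = 0.0021), 1.53 ± 0.30 for Galnt12 (0.0023), 1.47 ± 0.32 for Fut2 (0.0046), 1.43 ± 0.29 for Galnt6 (0.0027), 0.98 ± 0.15 for Galnt7 (0.00046) and 0.58 ± 0.15 for Gcnt1 (0.012). Galnt1 (0.17, adjusted p = 0.29), Galnt3 (0.53, 0.17), B3gnt3 (0.31, 0.43) and C1galt1 (0.01, 0.98) were not called. The Gcnt3 share was 7.11 points above saline (exact two-sided permutation p = 0.0159, adjusted p = 0.0238, and 0.143 to 0.155 without any 1 of the saline lungs). With the Rn45s share as a covariate 0 of the 10 were called by edgeR, Galnt7 coming nearest at 0.77 (adjusted p = 0.054), while 10 of 10 changes stayed positive and 3 had an unadjusted p under 0.05. With epithelial scaling 5 were called, without Gcnt1 (0.80, adjusted p = 0.13).

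The enzymes fell into different orders across lungs of one group. Among OVA lungs the summed goblet markers were 18012.4 CPM in replicate 3, 10038.3 in replicate 4, 6320.8 in replicate 1, 4288.1 in replicate 2 and 2540.3 in replicate 5. Gcnt3 was highest in replicates 3 and 4 and lowest in replicate 5, and B3gnt3 and Fut2 were also highest in replicates 3 and 4. The same lungs were highest in summed general epithelial (1004.7 and 786.7 CPM) and club cell markers (10066.5 and 6580.1 CPM). They were also highest in ciliated cell (671.2 and 447.4 CPM) and alveolar type 2 cell markers (8410 and 9404.3 CPM), so the order is not particular to goblet markers. Gcnt1 ran in exactly the reverse order of the goblet markers, from 36.7 CPM in replicate 3 to 68.3 CPM in replicate 5. With 5 lungs this is a description, and no test was made.

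Under the antibody the goblet sums were 10669.6 CPM in replicate 1, 8958.4 in replicate 3, 3344.2 in replicate 4, 1085.9 in replicate 2 and 833.6 in replicate 5. Replicates 1 and 3 had the most Gcnt3, Fut2, Galnt12, Galnt7, Gcnt1, Galnt3 and B3gnt3 of the group. Galnt6 was instead highest in replicate 4, at 38.7 CPM, the lung with the highest summed plasma cell markers (3774.4 CPM), T cell markers (225 CPM) and B cell markers (960.3 CPM) and the highest Rn45s share (12.4%). Among OVA lungs Galnt6 was highest in replicate 2, at 46.7 CPM, which had the highest plasma cell sum (1904.7 CPM), T cell sum (295.4 CPM) and B cell sum (1380.7 CPM) of its group. Plasma cell markers were called higher in 5 of 7 and lower in 1 of 7 in OVA against saline, and their sum ran from 370.3 to 497.5 CPM in saline, 830.8 to 1904.7 CPM in OVA and 511.4 to 3774.4 CPM in anti-IL-4Ra lungs. The part of plasma, T and B cell markers and of the Rn45s share in the Galnt6 result was not tested. Anti-IL-4Ra replicates 1 and 3 had Rn45s shares of 9.8% and 9.79%, and replicates 2 and 5 had 3.1% and 1.65%. Summed alveolar type 2 cell markers were 6092 and 4186.6 CPM in replicates 1 and 3 and 12760.6 and 10011.2 CPM in replicates 2 and 5. Replicates 1 and 3 were highest in summed general epithelial markers (940.7 and 899 CPM) and ciliated cell markers (619.5 and 743 CPM). Summed club cell markers were instead highest in replicate 5, at 15219.2 CPM. The part of these markers, goblet markers, alveolar markers and the Rn45s share in the enzyme orders was not tested.

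**Figure D3:**
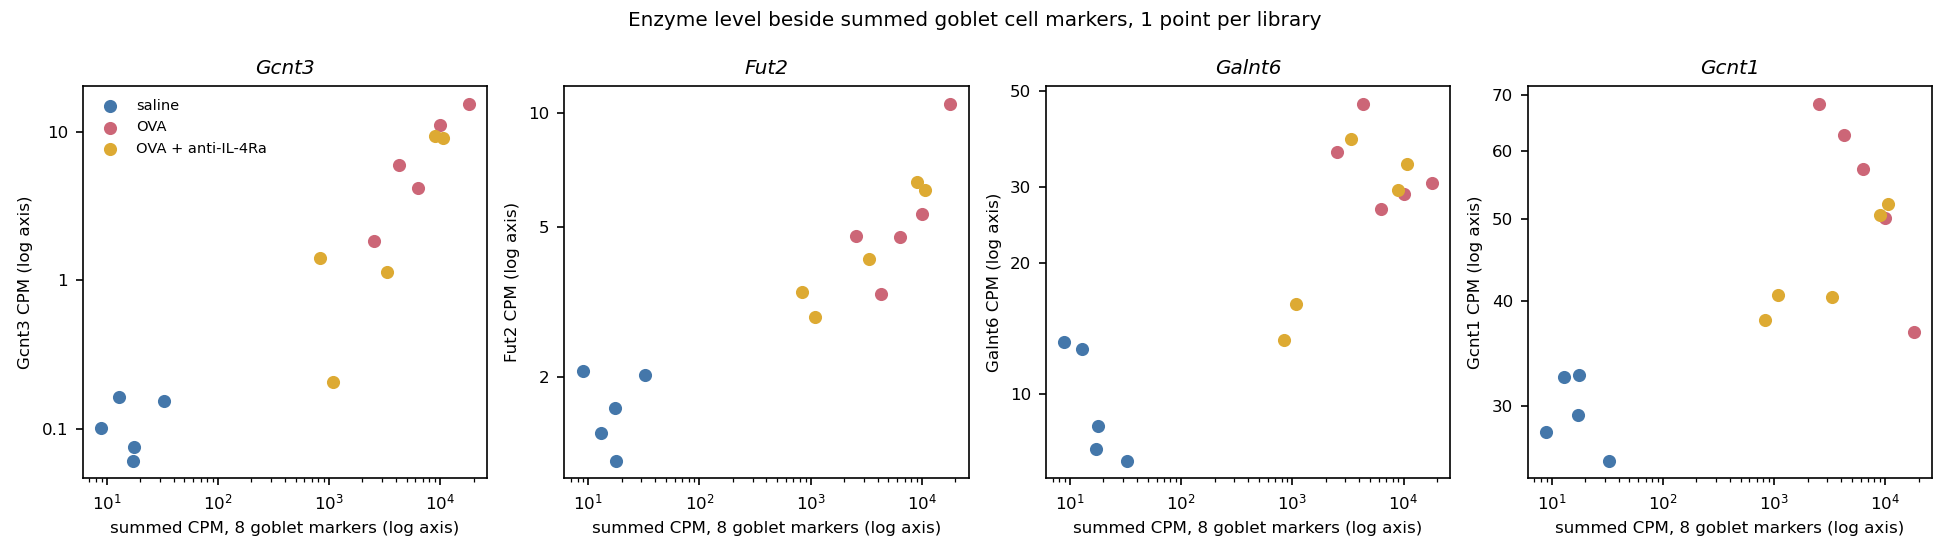
Level of Gcnt3, Fut2, Galnt6 and Gcnt1 (y axes, CPM, log scale) beside the summed CPM of 8 goblet cell markers (x axis, log scale), 1 point per lung, coloured by group. Gcnt3 and Fut2 are highest in the OVA lung with 18012.4 CPM of goblet markers, in which Gcnt1 is lowest among the OVA lungs at 36.7 CPM.

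Levels of different genes were compared per kilobase of annotated exon. Galnt1 was the most abundant enzyme in every group, at 30.8, 39.3 and 34.5 CPM per kilobase in saline, OVA and anti-IL-4Ra lungs, and Gcnt3 the least in saline (0.0258) and in OVA (1.80) and anti-IL-4Ra lungs (0.988). In saline lungs C1galt1 (7.99) and Gcnt1 (6.07) followed Galnt1, then Galnt7 (3.85), Galnt3 (3.60), Galnt6 (2.52), Galnt12 (2.25), B3gnt3 (1.73) and Fut2 (0.565). In OVA lungs Gcnt1 (11.2), Galnt6 (8.73), C1galt1 (8.60), Galnt7 (8.16) and Galnt12 (7.26) followed Galnt1. Galnt3 (5.25), B3gnt3 (2.29), Fut2 (1.95) and Gcnt3 came last. Anti-IL-4Ra lungs had Gcnt1 (9.05), C1galt1 (8.08), Galnt7 (7.61), Galnt6 (6.79), Galnt12 (6.51) and Galnt3 (5.23) after Galnt1, then B3gnt3 (2.15), Fut2 (1.57) and Gcnt3. Neighbours in these orders whose means differed by less than the larger of their SDs over lungs are not set apart. These were Galnt7 and Galnt3, and Galnt6 and Galnt12, in saline lungs. In OVA lungs they were the run Galnt6, C1galt1, Galnt7 and Galnt12 and the run B3gnt3, Fut2 and Gcnt3. Gcnt1 and C1galt1, no neighbours in OVA lungs, also differed there by less than the C1galt1 SD of 2.71 CPM per kilobase. In anti-IL-4Ra lungs they were the run from Gcnt1 through C1galt1, Galnt7, Galnt6 and Galnt12 to Galnt3, and Fut2 and Gcnt3.

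For the 3 enzymes with the largest changes, the genes with the most similar profile were found as those with the smallest root mean square difference of centred log2 CPM over the 15 libraries, among 15194 genes of at least 1 CPM on average. For Gcnt3 these were Foxa3, a forkhead transcription factor that is also among the goblet markers, at 0.97, Scin, an actin-severing protein, at 1.0, and Adra2a, an adrenergic receptor, at 1.1. None was close, as these distances exceed all those for Galnt6 and Fut2 below. Their log2 changes in OVA against saline were 4.57, 5.58 and 4.25, beside 6.02 for Gcnt3. For Galnt6 they were Pkmyt1, a kinase that inhibits Cdk1, at 0.25, Dnah8, a dynein heavy chain, at 0.26, and Socs1, an inhibitor of cytokine signalling, at 0.26. For Fut2 they were Mlph, a vesicle transport adaptor, at 0.30, Gsto1, a glutathione transferase, at 0.33, and Sdcbp2, a PDZ domain protein, at 0.35.

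The rest of the pathway was read from 75 further genes, of which 67 were tested. In OVA against saline 12 were higher and 12 lower (19.3% and 17.8% of all genes), with a median of 0.11. No test of the 10 enzymes against these was made. The 11 tested other GalNAc transferases had 4 lower and none higher: Galnt13 (-2.46 ± 0.42, edgeR adjusted p = 0.00053), Galnt15 (-1.50 ± 0.50, 0.027), Galnt18 (-0.74 ± 0.19, 0.0065) and Galnt2 (-0.45 ± 0.11, 0.0050). Among 3 core and branching genes Gcnt2, which makes I branches, was lower (-1.04 ± 0.18, adjusted p = 0.00056). C1galt1c1, the chaperone C1galt1 needs, was not called (-0.49 ± 0.22, 0.095), nor was B3gnt6, the core 3 enzyme (-0.90 ± 0.38, 0.076). Gcnt4 did not pass the filter, with 42 counts over the saline and 52 over the OVA lungs.

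Capping genes were called in both directions. Of 5 fucose and blood group genes 3 were higher: Fut1, which also makes the H antigen (4.13 ± 0.80, edgeR adjusted p = 0.0012, from 9 counts over the saline and 100 over the OVA lungs), Fut9 (3.31 ± 0.89, 0.0090) and B4galnt2 (0.96 ± 0.32, 0.030). The groups overlapped for Fut9, at 0.41 CPM from 4 counts in the lowest OVA lung and 1.01 CPM in the highest saline lung. Of 10 sialyltransferase genes St3gal4 was higher (0.57 ± 0.13, 0.0042) while St6galnac3 (-0.90 ± 0.20, 0.0029) and St3gal2 (-0.67 ± 0.11, 0.0004) were lower. St6galnac1, the sialyl-Tn enzyme, did not pass the filter, with 6 counts in saline and 38 in OVA lungs. Of 9 sulfation genes Chst2 (-0.77 ± 0.16, 0.0018), Chst1 (-0.75 ± 0.28, 0.045) and Papss1 (-0.34 ± 0.11, 0.022) were lower and none was higher.

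The counts by step are read beside the 19.3% higher and 17.8% lower of all genes, and none is called particular to its step. Chain extension, close to those shares, had 2 of 12 higher, B3galt5 (1.94 ± 0.59, edgeR adjusted p = 0.017) and B3gnt5 (1.18 ± 0.36, 0.018), and 2 lower, B4galt4 (-0.67 ± 0.21, 0.021) and B3gnt9 (-0.62 ± 0.15, 0.0045). The B3galt5 change rested on 22 counts over the saline and 51 over the OVA lungs. Sugar donor supply and Golgi transport had 6 of 17 higher and none lower, among them Nans (0.65 ± 0.17, edgeR adjusted p = 0.0083) and Cmas (0.48 ± 0.13, 0.0091) of sialic acid synthesis, Gfpt1 (0.62 ± 0.19, 0.017) and Uap1 (0.50 ± 0.12, 0.0042) of the hexosamine pathway and Slc35d1, a nucleotide sugar transporter (0.54 ± 0.17, 0.018).

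**Figure D4:**
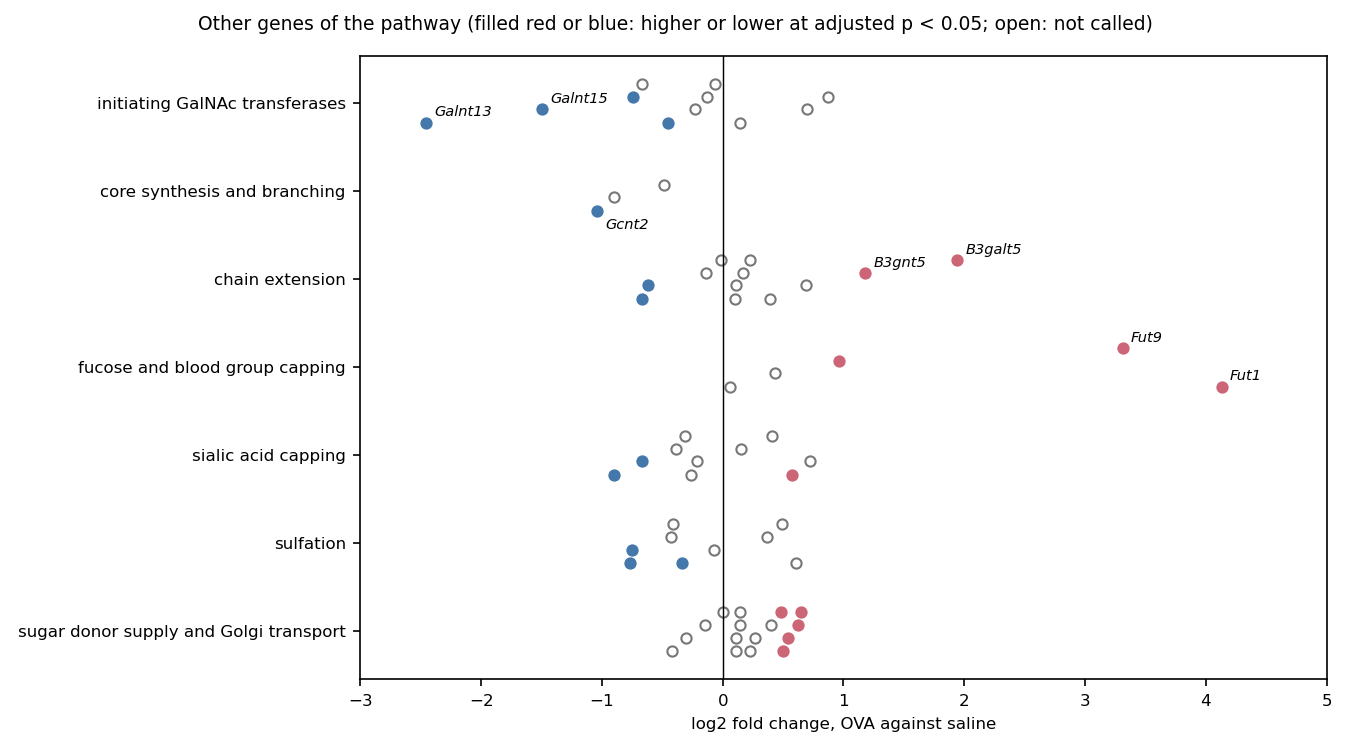
log2 fold change in OVA against saline (x axis) of the tested pathway genes other than the 10 enzymes (1 gene is not drawn), in rows by step (y axis; vertical scatter has no meaning), filled red or blue where called higher or lower by edgeR. Fucose and blood group genes reach 4.13 (Fut1), and the called GalNAc transferases all lie left of 0.

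These pathway counts depended on scaling. Relative to summed epithelial markers 19 were higher and 1 lower, the lower one being Galnt13 (-2.15, edgeR adjusted p = 0.0019) and Papss1 turning to 0.09, against a median of all genes of 0.50. With upper quartile scaling 18 were higher and 11 lower, and with the Rn45s share as a covariate 2 were called, St3gal2 (-0.64, adjusted p = 0.033) and Chst1 (-1.33, 0.032). Leaving out 1 library ended some calls, with adjusted p-values up to 0.17. Without OVA replicate 1 these were Galnt15, B3gnt5, B4galt4, B4galnt2, Chst1 and Papss1, and without OVA replicate 2 the same except B4galnt2. Without OVA replicate 5 they were Galnt15, B4galnt2, Chst1 and Papss1, and without OVA replicate 3 or 4 Chst1 and Gfpt1. Without saline replicate 1 they were Galnt15, B4galnt2 and Chst1, without saline replicate 5 B4galt4, B4galnt2 and Chst1, without saline replicate 2 B4galnt2 and Slc35d1, and without saline replicate 3 Chst1.

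In anti-IL-4Ra against OVA 0 of the 67 were called by edgeR, DESeq2 or limma voom. By edgeR 3 had an unadjusted p under 0.05, Galnt13 (1.43 ± 0.43, adjusted p = 0.36), St3gal4 (-0.34 ± 0.13, 0.67) and B3gnt9 (0.33 ± 0.15, 0.84). DESeq2 gave 3 and limma voom 2 at that level. In anti-IL-4Ra with OVA against saline 9 of the 67 were higher and 6 lower (13.9% and 12.7% of all genes). Fut1 was at 4.52 ± 0.78 (edgeR adjusted p = 0.0010), Gcnt2 at -0.81 ± 0.18 (0.0045) and St3gal2 at -0.63 ± 0.11 (0.0011). Without anti-IL-4Ra replicate 1 the 15 calls became 8, and without replicate 3 they became 9.

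Of the 6 tested mucins, which these enzymes decorate, 3 were higher and 1 was lower in OVA against saline. Muc5ac, the inducible gel-forming mucin of goblet cells, averaged 2.76 ± 2.67 CPM (SD, n = 5) in saline, 853.5 ± 735.6 CPM in OVA and 771.1 ± 836.9 CPM in anti-IL-4Ra lungs (8.24 ± 1.18 for OVA against saline, edgeR adjusted p = 0.00016). Muc5b, the constitutive airway mucin, averaged 83.0 ± 107.0, 1747.3 ± 1169.0 and 1710.2 ± 1560.4 CPM (4.39 ± 1.00, adjusted p = 0.0033), and the membrane mucin Muc4 73.9 ± 35.1, 238.0 ± 96.3 and 201.4 ± 107.6 CPM (1.69 ± 0.38, 0.0030). Muc20 was lower (-0.82 ± 0.28, 0.031; not called without saline replicate 2 or 5 or OVA replicate 1, 2 or 5, up to 0.079). Muc1 (-0.56 ± 0.30, 0.15) and Muc2 (0.79 ± 0.50, 0.23) were not called, though Muc1 was without OVA replicate 3 (-0.87, 0.025) and Muc2 without saline replicate 4 (1.36, 0.036). In anti-IL-4Ra against OVA 0 of the 6 tested mucins were called by edgeR and none had an unadjusted p under 0.05, with Muc5ac at -0.15 ± 0.85 and Muc5b at -0.03 ± 0.87.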

How the data were processed

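RNA-seq of 15 lungs was read from 1 table of expected counts per gene symbol, deposited by the authors as raw values. Per the submitters' processing notes the tools were Bowtie2 2.1.0 and RSEM 1.2.15, with the human build hg38, although the symbols are those of mouse, so no gene coordinates are taken from the table. RSEM divides reads that fit several genes, and 17 to 20% of values per library were not whole. Counts were rounded, filtered with filterByExpr, scaled by TMM and fitted with edgeR 4.0.16 (R 4.3.3) in 1 quasi-likelihood model of all 15 libraries. Calls are at a Benjamini-Hochberg adjusted p under 0.05. On simulated counts for OVA against saline with 15816 genes tested, 66 of 100 genes changed 2-fold and 93 of 100 changed 4-fold were called. The simulation started from levels averaged over all lungs and changed far fewer genes than the 5898 called in the real comparison. Its rates need not hold for these data, or for genes near 0 in 1 group. CPM were computed with TMM-scaled library sizes. Alternatives were DESeq2 1.42.0, limma voom 3.58.1, other scalings and filters, an Rn45s covariate, a replicate block, only the groups compared, and leaving out each library.

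The titles call the 5 lungs of a group biological replicates. All 10 enzymes were described. Other pathway genes were named where called, up to 4 per list by size of change in OVA against saline, with C1galt1c1, B3gnt6, Gcnt4 and St6galnac1 in any case; Uap1 and Cmas were added after their values were seen, to complete their list. 1 gene of the sugar donor list is not reported here. The enzymes and lists were chosen with earlier results of these data known.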

Additional observations from a re-analysis of the deposited data

Results flagged for a closer look

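Fut2 in OVA replicate 3, at 10.6 CPM, lay apart from the other 4 lungs of its group (3.31 to 5.4 CPM) by more of the group's range than Dixon's 95% limit of 0.71 for 5 samples allows. It was 1 of 33 groups looked at, and chance alone is expected to mark about 1 in 20. The same lung had the highest Gcnt3 (15.5 CPM) and B3gnt3 (12.3 CPM) and the highest summed goblet cell markers (18012.4 CPM). Among OVA lungs it also had the highest summed general epithelial (1004.7 CPM), club cell (10066.5 CPM) and ciliated cell markers (671.2 CPM). Without it Fut2 stayed called in OVA against saline, at 1.39.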

How the results depend on the processing

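The 7 and 6 enzyme calls against saline held under the other scalings and filters, DESeq2 and limma voom to within 1.5 times, and 0 enzymes were called in anti-IL-4Ra against OVA under any alternative run. Leaving out each library gave 6 to 7, 0 to 0 and 6 to 6 enzyme calls in the 3 comparisons (OVA against saline, anti-IL-4Ra against OVA, anti-IL-4Ra with OVA against saline), 18 to 31, 0 to 0 and 8 to 20 calls among the other pathway genes and 4776 to 6619, 32 to 61 and 2844 to 4679 among all genes. With the Rn45s share as a covariate the enzyme calls were 2 against saline in OVA and 0 with the antibody, the other pathway calls 2 and 0 and the calls over all genes 752 and 373, from 5898 and 4236. Scaling to epithelial markers gave 5 other pathway calls and 1386 calls over all genes for anti-IL-4Ra with OVA against saline and 25 for anti-IL-4Ra against OVA, in place of 15, 4236 and 48, and moved the median of all genes by comparison to 0.50, -0.20 and 0.29. It raised the share of higher calls in OVA against saline from 52.0% to 91.7%. DESeq2 called 128 genes in anti-IL-4Ra against OVA. The cause of these shifts was not tested. Single genes whose sign turned were Papss1 (0.09, epithelial scaling) and Muc1 (0.02, Rn45s covariate) in OVA against saline, and C1galt1 in anti-IL-4Ra with OVA against saline (-0.01 with no low count filter, -0.06 with limma voom). On leaving out a library C1galt1 ran from -0.04 to 0.25, from -0.24 to 0.12 and from -0.11 to 0.18 in the 3 comparisons, and in anti-IL-4Ra against OVA Galnt3 ran from -0.20 to 0.18, Galnt7 from -0.19 to 0, Galnt12 from -0.36 to 0.03, B3gnt3 from -0.21 to 0.23 and Fut2 from -0.48 to 0.05.

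Lungs with the same replicate number mostly did not deviate together (15 pairs, r from -0.55 to 0.35, 1 of 15 closest to its own number). This gave no sign that the numbers pair lungs, but cannot exclude it. The replicate block gave 6 enzyme calls in OVA against saline, without Galnt1 (0.36, edgeR adjusted p = 0.053), 8 other pathway calls in anti-IL-4Ra with OVA against saline and 26 calls over all genes in anti-IL-4Ra against OVA. With the block the Gcnt3 share differences of 12.8 and 7.11 points against saline had an exact permutation p adjusted to 0.188 over the 3 comparisons. The 5 pairs allow few sign changes. For the 7.11 points, replicate 2 also went the other way, at 0.506% with the antibody and 0.595% in saline. Leaving out 1 lung gave differences of 8.7 to 15.5 and 5.06 to 8.85 points. Without any 1 of the saline lungs the adjusted exact permutation p-values passed the threshold (up to 0.0714 and 0.155). Saline shares were 0.208 to 0.595%, so leaving out 1 of them hardly moves the mean. The permutation p also depends on the group sizes, so its rise does not show dependence on a single saline lung. Depth limits Gcnt3, Fut1, B3galt5 and Fut9 in saline lungs, and the spread between lungs leaves single enzymes' intervals on both sides of 0 in the antibody comparison.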
